A study of Mus musculus with 8 samples.

Results

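Kinesins are motor proteins that walk along microtubules by hydrolysing ATP, or take microtubules apart from their ends. Those of the cargo transport group carry vesicles, mitochondria and protein complexes, those of the spindle group work in chromosome segregation and cytokinesis, and a further group serves cilia and the sperm flagellum. In the spermatid, motors of this superfamily act on the manchette, the microtubule skirt that shapes the nucleus, and in assembly of the flagellum. The kinesin genes described here are those whose symbol is Kif followed by a digit, together with Kifc2, Kifc3 and Kifap3, and without Kif3a, Kif3b and Kif17. By this rule 37 of the 18193 genes measured were members. They were read by 93 probe sets. Where a gene had several that name it alone, the brightest by its average over the 8 arrays stood for it.

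Round spermatids, the haploid cells that follow meiosis, were profiled from BrdtΔBD1 mutant mice and from control mice, both on the 129 Sv/Ev strain and aged 2 to 4 months. Brdt encodes a testis-specific reader of acetylated histones, and the allele name denotes loss of its first bromodomain. Each of the 4 mutant and 4 control arrays held RNA pooled from 7 animals, after separation of the cells on an albumin gradient. The p-values measure the spread between these pools. The comparison asks which transcripts differ in level between the genotypes. Levels are log2 intensities as normalized by the authors, so a difference of 1 is a 2-fold change. Brightness of different probe sets depends on the probes, so levels of different genes are not compared as amounts of RNA. The 4 members with the highest control mean were picked by brightness only to print their values.

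The brightest Brdt probe set read 10.29 to 11.09 on mutant and 11.72 to 12.25 on control arrays, and since where it lies against the deletion is unknown here, it does not check the genotype. All 15 round spermatid markers of the list used had a mean above 8, with list means of 13.41 to 13.72 on mutant and 13.35 to 13.66 on control arrays. By the Gapdh control probes, RNA quality set control arrays 1 and 3 apart. These probes read 1.68 and 2.05 higher (log2) at the 3' end than at the 5' end, against 0.33 to 0.94 on the other 6 arrays. The control probes for 18S ribosomal RNA set mutant array 1 apart as well. They averaged 11.2 and 8.87 on control arrays 1 and 3, 8.11 on mutant array 1 and 3.65 to 5.51 on the remaining arrays. Sertoli cell markers were higher in the mutant group, where 6 of 22 rose and 0 fell, beside 1.86% of all genes that rose. With the replicate number as a block 14 rose, beside 6.6% of all genes, and 21 of the 22 differences were above 0. Averaged over the list, the mutant arrays 1 to 4 gave 7.19, 5.92, 7.44 and 7.03, and the control arrays 1 to 4 gave 4.95, 5.13, 5.77 and 5.68. The list's members differed among themselves. Vim averaged 9.24 on mutant and 6.29 on control arrays, Clu 12.16 and 10.49, Cldn11 5.89 and 4.17, and Wt1 5.10 and 3.95, while Sox9 (3.80 in both), Fshr (2.51 and 2.41) and Amh (1.95 and 1.97) were dim in both groups. List means also lay higher on every mutant array than on any control array for markers of spermatogonia (5.13 to 5.61 against 4.55 to 4.90, 1 of 17 rose), of Leydig cells (4.93 to 5.39 against 4.39 to 4.64, 2 of 10 rose) and of peritubular, vascular and blood cells (3.26 to 3.78 against 3.11 to 3.25, 1 of 17 rose). With the block 4 of the 17 spermatogonia markers rose. Of the Leydig markers Aldh1a1 and Gsta2 rose (differences 2.50 and 2.65), while Cyp11a1 and Scarb1 were lower (-0.33 and -0.65). In that list 8 of the 10 differences were above 0, and 6 means lay under 4. Of the 17 peritubular, vascular and blood cell markers 15 had a mean under 4, and 5 differences were below 0. Dcn read 7.67 on mutant array 1 and 2.89 to 4.50 on the other mutant arrays. In such purified but bulk samples, fewer cells of a type and less RNA per cell cannot be told apart.

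Counted in both directions together, the family as a whole differed little between the genotypes. In limma over all genes with Benjamini-Hochberg adjustment, 1 of the 37 members passed the threshold of 0.05, which is 2.7% of them, beside 3.71% of all genes tested. That member was Kif21b, which fell. At an unadjusted p under 0.05 there were 8 members, 7 lower and 1 higher in mutant arrays, or 21.6%, beside 20.2% of all genes. The groups were fully separate for 2 members, Kif21b and Kif14, or 5.41%, beside 12.6% of all genes. The replicate numbers were taken to pair the arrays. With the replicate number as a block 3 members passed, or 8.11%, beside 11.5% of all genes. Each of these shares, taken in both directions together, lay below or close to that of the whole array. By direction the picture was uneven. The 7 lower members of 37 stand beside 9.16% of all genes that were lower at an unadjusted limma p under 0.05. The 1 higher member stands beside 2002 of 18193 genes that were higher. The median log2 difference over the members was -0.08, with 24 below 0 and 13 above, and that over all genes was -0.02.

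**Figure D1:**
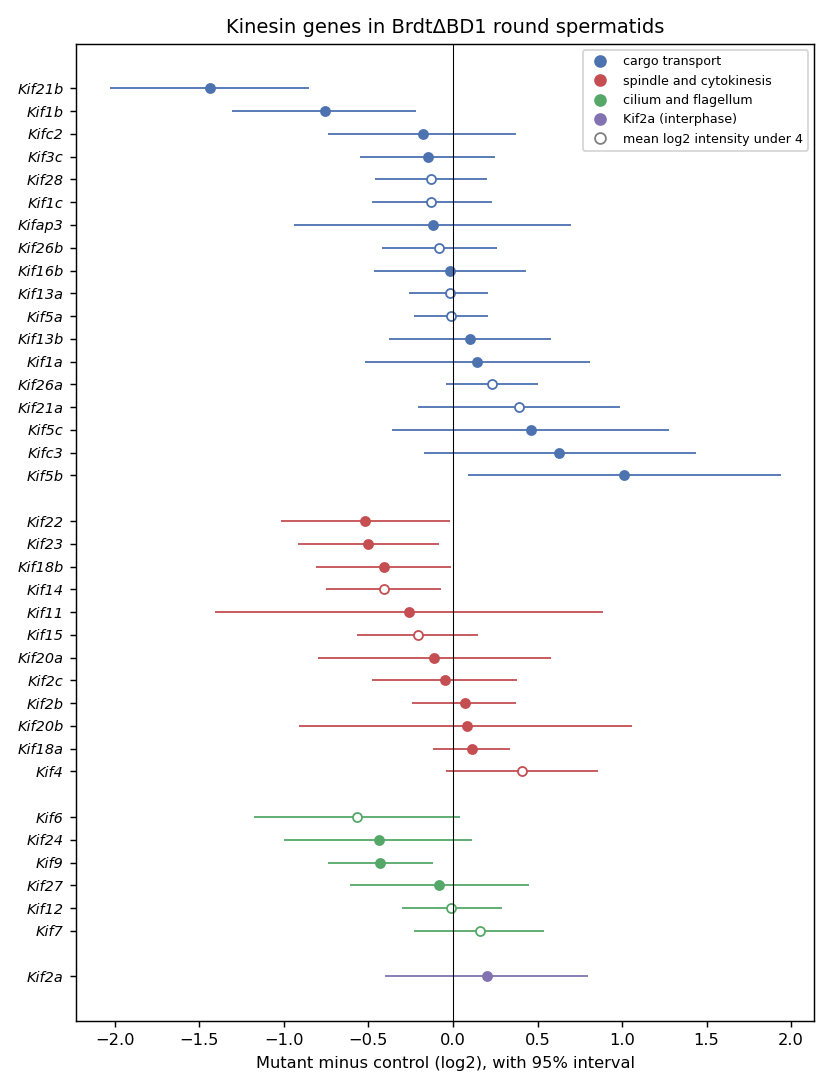
Difference of each kinesin gene between mutant and control arrays (x axis, log2; points are limma estimates, bars their 95% intervals, 4 arrays per group), grouped by role, with open points for genes whose mean log2 intensity was under 4. Kif21b at -1.44 lies farthest to the left and Kif5b at 1.01 farthest to the right.

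Of the 37 members, 14 had a mean of at least 8 over the 8 arrays, 10 lay between 4 and 8, and 13 were under 4, where the values of all arrays are compressed and a change in RNA could be hidden. The bright group held 8 of the 12 spindle genes, 3 of the 18 transport genes, 2 of the 6 cilium and flagellum genes, and Kif2a. For 11 of these 14 genes the 95% interval of the difference lay within a 2-fold change in either direction, and for 4 of them (Kif2b, Kif2c, Kif18a and Kif16b) within 1.5-fold. The 3 whose interval reached beyond 2-fold were Kif1b, Kif22 and Kif20b.

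Upstream sequences are shown for Kif2b and Kif2a, a pair of related depolymerizing kinesins that were both bright here and whose probe sets gave different pictures below. Each run is the 250 bases before the annotated transcription start in RefSeq (GRCm38.p6), written 5′ to 3′ on the strand of the gene, at chr11:91577556-91577805 for Kif2b and chr13:107022356-107022605 for Kif2a, both on the minus strand. Capitals mark a match to TGACG on either strand, the core of the cAMP response element, which is bound by CREM, a transcription factor of round spermatids.
Kif2b: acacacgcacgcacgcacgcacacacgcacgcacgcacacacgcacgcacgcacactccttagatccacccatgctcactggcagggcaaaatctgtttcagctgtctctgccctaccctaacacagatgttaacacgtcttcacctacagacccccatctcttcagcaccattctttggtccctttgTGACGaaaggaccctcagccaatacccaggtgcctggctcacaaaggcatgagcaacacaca
Kif2a: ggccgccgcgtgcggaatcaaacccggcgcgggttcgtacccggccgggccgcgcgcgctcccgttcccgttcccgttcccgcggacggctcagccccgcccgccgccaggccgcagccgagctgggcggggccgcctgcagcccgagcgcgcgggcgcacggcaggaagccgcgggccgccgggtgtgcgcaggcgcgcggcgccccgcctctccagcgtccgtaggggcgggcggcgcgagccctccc
The Kif2b window held 1 match, beginning 62 bases before the start, and the Kif2a window held 0. Of the 37 members 29 had at least 1 window in the promoter table, and 13 of their 33 windows (39.4%), belonging to 12 genes, held TGACG on either strand. Over all 32851 windows of the table the share was 17.8%. These matches are letters in a window and say nothing about binding.

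Among the transport kinesins, Kif21b changed most. It encodes a plus-end-directed motor known from neurons, where it also regulates microtubule growth. Its brightest probe set, 1435772_at, read 4.76, 4.54, 4.38 and 5.06 in mutants 1 to 4 and 6.50, 5.44, 6.02 and 6.54 in controls 1 to 4. Every mutant array was below every control array. The level was 2.72-fold lower, at 4.68 ± 0.29 against 6.12 ± 0.52 (SD, n = 4 each), a log2 difference of -1.44 (SE 0.26, adjusted p = 0.024 in limma, 0.0072 with the replicate block). The call was lost in 5 of the 8 fits that left out 1 array, those without mutant array 1 or 3 or control array 1, 3 or 4, with differences from -1.67 to -1.30 over all 8 and adjusted p up to 0.078. Without both control arrays 1 and 3 the difference was -1.31 (SE 0.34, limma adjusted p = 0.19), a fit in which 68 of all genes passed. A dimmer Kif21b probe set, 1421119_at, pointed the other way, with 3.70 ± 0.25 on mutant and 3.34 ± 0.30 on control arrays (difference 0.36, SE 0.18, limma adjusted p = 0.39 over probe sets). The fall of Kif21b is thus that of 1 of its 2 probe sets.

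Kif1b encodes a motor that carries mitochondria and synaptic vesicle precursors. Its brightest probe set read 9.03, 7.91, 8.68 and 8.55 in mutants 1 to 4 and 9.60, 8.98, 9.41 and 9.23 in controls 1 to 4. The mutant array was the lower one in all 4 pairs, although mutant array 1 lay above control array 2. Kif1b was 1.70-fold lower (difference -0.76, SE 0.24), which missed the threshold in limma (adjusted p = 0.12) and passed with the replicate block (SE 0.12, adjusted p = 0.017). The other 6 of its 7 probe sets had means near 4 or less and differences between -0.15 and 0.20. Without control arrays 1 and 3 the difference of Kif1b was -0.56 (SE 0.30).

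Kif5b, a heavy chain of conventional kinesin, gave the largest difference upwards. It read 7.38, 5.14, 5.93 and 5.75 in mutants 1 to 4 and 5.29, 4.97, 4.81 and 5.08 in controls 1 to 4. Mutant array 1 was the highest and mutant array 2 lay within the control range. The difference of 1.01 (SE 0.41) missed the threshold in limma (adjusted p = 0.21, and 0.081 with the block), and without mutant array 1 it was 0.57 (SE 0.21). All 6 Kif5b probe sets had a difference above 0, from 0.01 to 1.01. Probe set 1418428_at averaged 4.20 ± 0.47 on mutant and 3.37 ± 0.15 on control arrays (difference 0.83, SE 0.22, limma adjusted p = 0.12 over probe sets). The related heavy chain gene Kif5c was also highest on mutant array 1, at 5.47, with 3.52 to 4.51 on the other mutant and 3.66 to 4.42 on the control arrays. Kif5a, the third heavy chain gene, lay between 2.73 and 2.90 on all arrays.

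Kifc3 encodes a minus-end-directed motor of the C-terminal type. It read 8.55, 7.19, 7.45 and 8.27 in mutants 1 to 4 and 7.58, 6.86, 6.71 and 7.77 in controls 1 to 4. In each of the 4 pairs the mutant array was the higher one, while the groups overlapped. The difference of 0.63 (SE 0.35) had an adjusted p of 0.37 in limma and of 0.035 with the block (SE 0.14). Within the mutant group Kif5b and Kifc3 were highest on array 1 and lowest on array 2. The Sertoli marker mean was lowest on mutant array 2 (5.92) and highest on mutant array 3 (7.44). Mutant array 1 had the highest means of the spermatogonia (5.61), Leydig (5.39) and peritubular, vascular and blood cell (3.78) lists. That array also had the highest 18S signal of the mutant group (8.11). A link of the 2 genes to any of these lists or to the 18S signal was not tested. With the Sertoli mean as a covariate the differences were 0.19 (SE 0.72) for Kif5b and 0.15 (SE 0.66) for Kifc3, and -1.56 (SE 0.51) for Kif21b and -1.43 (SE 0.38) for Kif1b. In that fit 1 gene of the whole array passed, and no mutant array had a Sertoli mean as low as any control array.

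**Figure D2:**
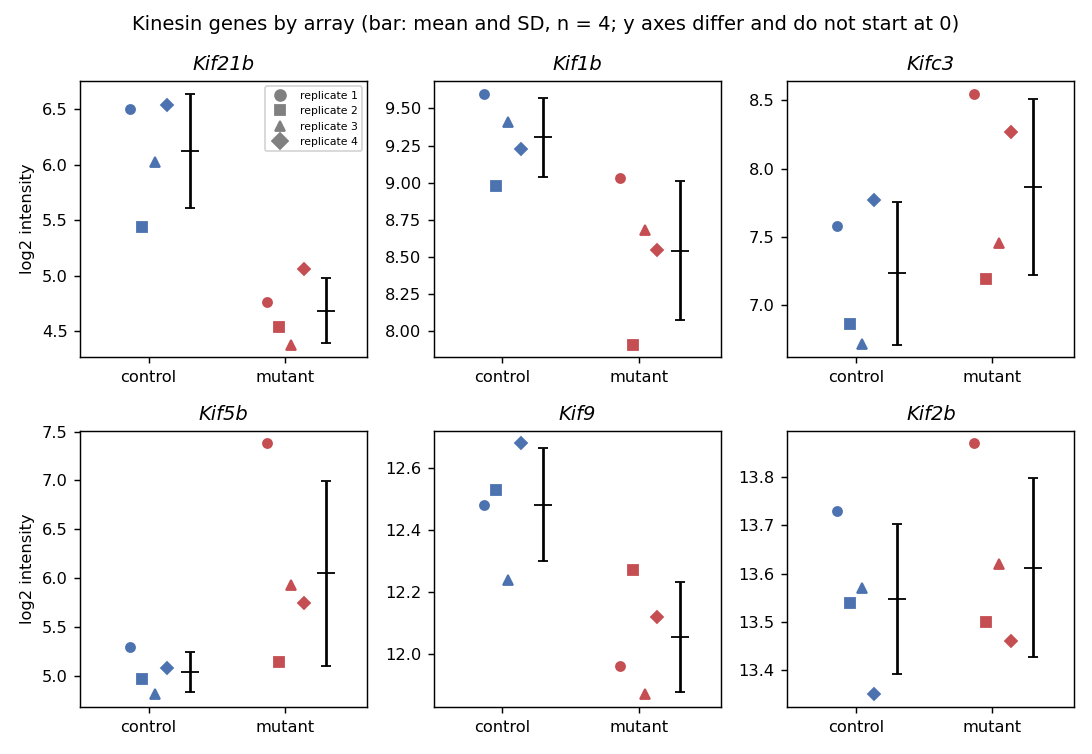
Log2 intensity of 6 kinesin genes on each array (y axes differ and do not start at 0), with 1 symbol per replicate number and the mean and SD of 4 arrays beside each group. The groups separate for Kif21b, while mutant array 1 stands above the others for Kif5b at 7.38.

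Kifap3 encodes the accessory subunit that joins the heterotrimeric kinesin of intraflagellar transport to its cargo. It read 13.34, 12.11, 12.55 and 12.01 in mutants 1 to 4 and 13.48, 12.47, 12.40 and 12.12 in controls 1 to 4. Array 1 was the brightest in both groups, and the groups covered nearly the same range. The difference was -0.12 (SE 0.36, 95% interval -0.94 to 0.70), and the sign turned without control arrays 1 and 3. A second Kifap3 probe set, 1451783_a_at, also gave -0.12. The motor subunits left out of the member list read 10.99 and 11.40 (Kif3a), 11.26 and 11.34 (Kif3b) and 11.11 and 11.59 (Kif17) as mutant and control means, with differences of -0.41, -0.08 and -0.48 that missed the threshold. Kifc1, read by an s_at probe set, was dim in both groups (3.44 and 3.53).

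Of the other transport members, Kif16b, a motor of early endosomes, differed by -0.02 (SE 0.20) at means of 8.55 and 8.57, and Kif1a, a carrier of synaptic vesicle precursors, by 0.14 (SE 0.29) at 7.09 and 6.95. Kif13b differed by 0.10 (SE 0.21) and Kifc2 by -0.18 (SE 0.24). Kif3c, Kif1c, Kif13a, Kif21a, Kif26a, Kif26b and Kif28 had means of 2.62 to 4.08, and their differences ran from -0.15 to 0.39. With the block 1 of the 18 transport genes rose (Kifc3) and 2 fell (Kif21b and Kif1b). Of all genes 11.5% passed with the block in either direction, and 6.6% rose.

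Of the 12 spindle and cytokinesis kinesins 0 passed in limma, with or without the block, and 4 were lower and 0 higher at an unadjusted p under 0.05, where 9.16% of all genes were lower. The 4 were Kif14, Kif23, Kif22 and Kif18b. Kif23, a motor of the central spindle in cytokinesis, read 8.35, 8.79, 8.52 and 8.95 in mutants 1 to 4 and 9.47, 9.32, 8.85 and 8.96 in controls 1 to 4. Its difference was -0.50 (SE 0.19, limma adjusted p = 0.18), and the mutant array was the lower one in all 4 pairs, by a narrow margin in pair 4. A second Kif23 probe set, 1453748_a_at, differed by -0.03 (SE 0.54) at means of 6.13 and 6.16. Kif22, a chromosome-arm motor, differed by -0.52 (SE 0.22, limma adjusted p = 0.23), and Kif18b, a motor acting on astral microtubules, by -0.41 (SE 0.18, limma adjusted p = 0.24). Both were lower in the mutant array of all 4 pairs. With the Sertoli mean as a covariate the differences were 0.01 (SE 0.30) for Kif23, 0.06 (SE 0.36) for Kif22 and 0.07 (SE 0.28) for Kif18b. In that fit Kif20a and Kif20b, at -0.11 and 0.08 without the covariate, differed by 1.10 (SE 0.32) and 1.73 (SE 0.50). The Sertoli mean separates the groups, so the fit cannot tell genotype and Sertoli content apart. The 3 probe sets of Kif22 differed by -0.52, -0.23 and -0.74, and the last, 1423813_at, passed over probe sets with the block (limma adjusted p = 0.018).

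Kif14, a motor of late cytokinesis, was the member besides Kif21b whose groups did not overlap. It read 3.09, 3.26, 3.41 and 3.45 in the mutants and 3.88, 3.46, 3.96 and 3.56 in controls 1 to 4. At this low level the difference was -0.41 (SE 0.15, limma adjusted p = 0.17). The highest values were those of control arrays 3 and 1, and without both the difference was -0.21 (SE 0.15). Kif4, a chromosome-bound motor, went the other way at 3.78 ± 0.36 against 3.37 ± 0.24 (difference 0.41, SE 0.20, limma adjusted p = 0.29). Means of the cell division markers were 8.94 to 9.68 on mutant and 8.80 to 9.34 on control arrays. Of 23 such markers 1 rose and 0 fell, beside 3.71% of all genes in either direction. With the block 3 rose and 1 fell, beside 11.5% of all genes. Of 22 spermatocyte markers 0 passed in limma (8 at an unadjusted p under 0.05, beside 20.2% of all genes) and with the block 3 rose and 1 fell, with list means of 8.80 to 9.47 and 8.82 to 9.11.

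Several spindle members were bright and close between the genotypes. Kif2b, a depolymerizing kinesin with high expression in testis, read 13.87, 13.50, 13.62 and 13.46 in mutants 1 to 4 and 13.73, 13.54, 13.57 and 13.35 in controls 1 to 4. The groups covered the same range, and the difference of 0.07 (SE 0.13) had a 95% interval of -0.24 to 0.37. Kif18a, which limits chromosome oscillation at the metaphase plate, differed by 0.11 (SE 0.10, 95% interval -0.12 to 0.34). Kif20a, a cytokinesis motor, differed by -0.11 (SE 0.30) at means near 10 (10.17 and 10.29), and Kif20b by 0.08 (SE 0.43). Kif20b was brighter on arrays 1 and 2 of both groups (9.34 to 10.07) than on arrays 3 and 4 (8.18 to 8.63). Kif11, the motor that separates spindle poles, ranged from 3.82 to 6.22 on control arrays alone, the widest control spread of the members (SD 1.10). Control arrays 1 and 3 read 4.16 and 3.82, and control arrays 2 and 4 read 5.30 and 6.22. The Kif11 difference was -0.26 (SE 0.51). Without control arrays 1 and 3 it was -1.15 (SE 0.39, limma adjusted p = 0.27). A second Kif11 probe set, 1435306_a_at, pointed the other way, with 4.15 to 4.51 on mutant and 3.62 to 4.07 on control arrays (difference 0.36, SE 0.13, limma adjusted p = 0.24 over probe sets). Kif15 was dim (2.62 and 2.83).

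Kif2c, the depolymerizing kinesin of centromeres, had 4 probe sets that behaved differently between arrays. The brightest, 1449060_at, read 12.35, 11.77, 11.81 and 11.76 in the mutants and 12.00, 12.29, 11.57 and 12.04 in controls 1 to 4. Its difference was -0.05 (SE 0.19). Probe set 1454221_a_at read 10.15, 10.37, 8.68 and 9.81 in the mutants and 8.16, 10.71, 6.50 and 10.62 in controls 1 to 4. The lowest values were those of control arrays 3 and 1, followed by mutant array 3, the 3 arrays with the most 3'-weighted Gapdh signal (2.05, 1.68 and 0.94). The genotype difference of 0.75 (SE 0.90) became -0.91 (SE 0.45) once control arrays 1 and 3 were left out. Probe set 1454107_a_at of Kif2a was likewise lowest on control arrays 1 and 3, at 6.56 and 7.18, against 9.35 and 9.77 on control arrays 2 and 4.

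**Figure D3:**
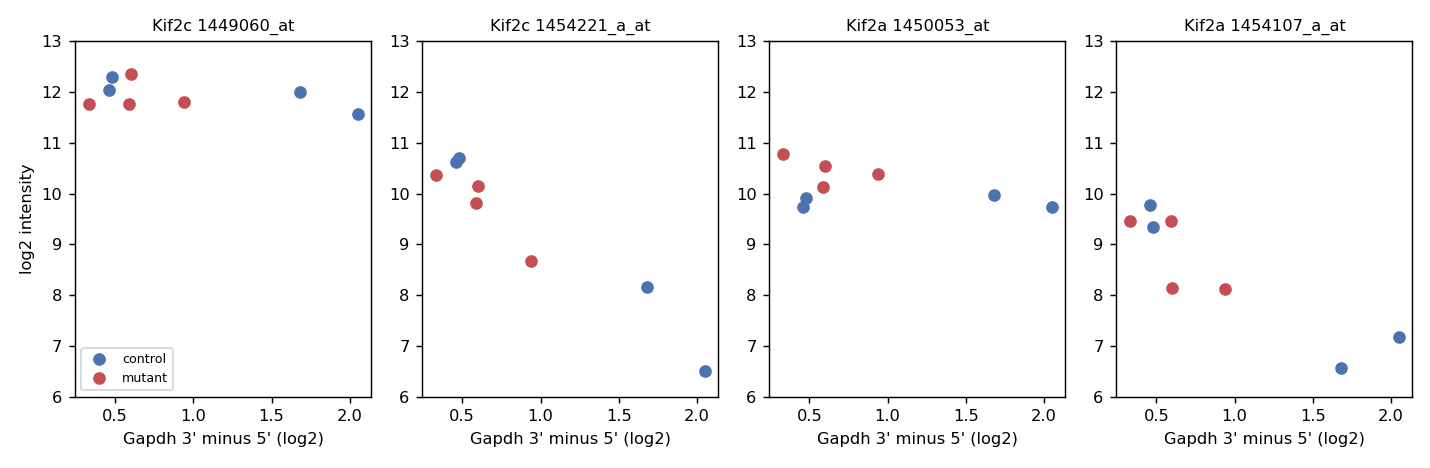
Log2 intensity of 2 probe sets of Kif2c and 2 of Kif2a (y axis) against how much brighter Gapdh read at its 3' than at its 5' end (x axis, log2), 1 point per array. Probe set 1454221_a_at of Kif2c runs from 10.71 down to 6.50, while 1449060_at stays between 11.57 and 12.35.

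Kif2a, a depolymerizing kinesin of neurons and of spindle poles, was read by 5 probe sets, of which 4 were bright. The brightest, 1452499_a_at, averaged 11.13 ± 0.39 on mutant and 10.93 ± 0.46 on control arrays (difference 0.20, SE 0.26). Probe set 1450053_at read 10.54, 10.78, 10.38 and 10.14 in mutants 1 to 4 and 9.97, 9.92, 9.74 and 9.74 in controls 1 to 4. Every mutant array was above every control array for that probe set. Its difference of 0.62 (SE 0.15) missed the threshold over all probe sets in limma (adjusted p = 0.082) and passed with the block (adjusted p = 0.027). It was 0.63 (SE 0.19) without control arrays 1 and 3. The other 2 bright probe sets differed by 0.84 (SE 0.41) and 0.59 (SE 0.73). These became 0.11 (SE 0.25) and -0.76 (SE 0.47) without control arrays 1 and 3, and the difference of 1452499_a_at became -0.19, so of the 4 bright probe sets 1450053_at alone kept its size.

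Over all probe sets, 1 of the 93 member probe sets passed in limma, beside 1.42% of all probe sets, and 5 passed with the block, beside 6.43%. The 5 were those of Kif21b, Kif1b, Kifc3, Kif22 (1423813_at) and Kif2a (1450053_at). A mean under 4 was found for 57 of the 93. Of the 8 members with at least 2 probe sets of mean 4 or more, the differences shared a sign in 4 (Kif22, Kif23, Kif2a and Kifap3). For Kif23 this holds by a second probe set at -0.03 (SE 0.54).

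**Figure D4:**
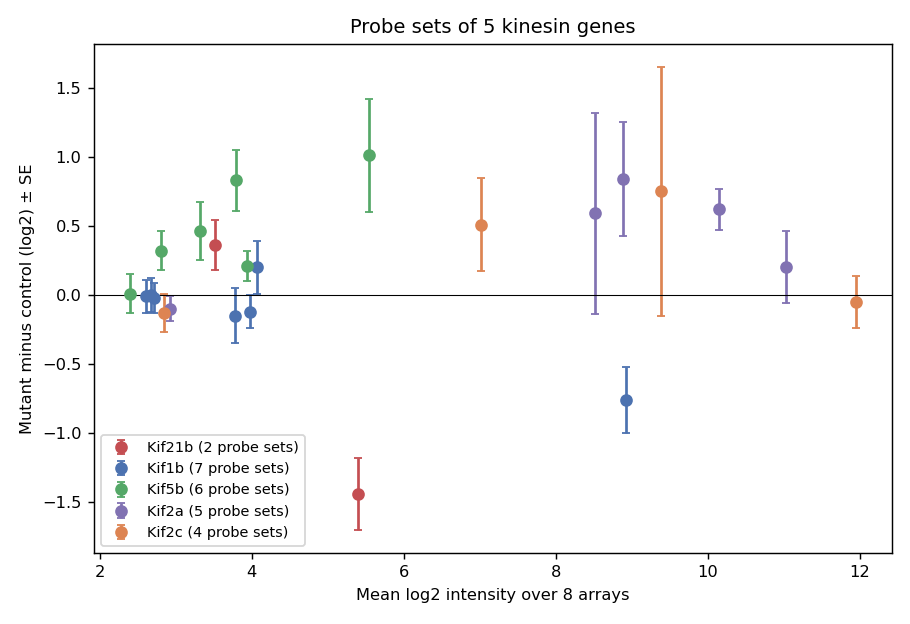
Difference between mutant and control arrays (y axis, log2, with SE) against the mean log2 intensity over 8 arrays (x axis) for all probe sets of 5 kinesin genes. The 2 probe sets of Kif21b lie on opposite sides of 0, at -1.44 and 0.36, and the 6 of Kif5b lie at or above it.

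Of the 6 cilium and flagellum kinesins measured 0 passed in limma, with or without the block. At an unadjusted limma p under 0.05, 1 was lower, where 9.16% of all genes were lower. Differences were below 0 for 5 of the 6, beside 9766 of all 18193 genes, and 3 of the 6 had a mean under 4. Kif9, a motor of the sperm flagellum and motile cilia, read 11.96, 12.27, 11.87 and 12.12 in mutants 1 to 4 and 12.48, 12.53, 12.24 and 12.68 in controls 1 to 4. Mutant array 2 alone reached into the control range, and the mutant array was the lower one in all 4 pairs. Kif9 was 1.35-fold lower (12.06 ± 0.18 against 12.49 ± 0.18, difference -0.43, SE 0.14), with an adjusted p of 0.13 in limma and of 0.051 with the block. Without control arrays 1 and 3 the difference was -0.55 (SE 0.16), and with the Sertoli mean as a covariate -0.12 (SE 0.24). Kif27, related to the Hedgehog regulator Kif7, differed by -0.08 (SE 0.23) at means of 11.28 and 11.36. Kif6, a motor of motile cilia, read 3.49 to 3.77 on mutant arrays and 5.04, 3.84, 4.24 and 3.72 on control arrays 1 to 4 (difference -0.57, SE 0.27, limma adjusted p = 0.28). Without control arrays 1 and 3 the Kif6 difference was -0.14 (SE 0.15), and leaving out 1 array gave -0.73 to -0.29. Kif24, which acts on centrioles, differed by -0.44 (SE 0.24), with control array 1 highest at 6.21. Kif7 and Kif12 were dim.

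Kinesins work with light chains and cargo adaptors. Of the 21 such genes measured from a list of 25, 0 rose and 1 fell, beside 3.71% of all genes in either direction. Under the block the counts were 1 up and 3 down, beside 11.5% of all genes. The gene that fell in both fits was Hap1, an adaptor that binds huntingtin and links cargo to kinesin light chains. It read 4.49, 5.76, 5.90 and 6.04 in mutants 1 to 4 and 7.53, 6.63, 7.34 and 7.60 in controls 1 to 4. Every mutant array was below every control array (difference -1.73, SE 0.36, adjusted p = 0.038 in limma, 0.37 at the highest of 19 alternatives). The call was lost in 4 of the 8 fits without 1 array, those without mutant array 3 or control array 1, 3 or 4. Fez2, an adaptor of conventional kinesin, had a difference of 0.91 (SE 0.26, adjusted p = 0.093 in limma, 0.047 with the block) at the low means of 3.80 and 2.89. The light chain gene Klc4 (-0.72, SE 0.42) and the scaffold gene Mapk8ip1 (-0.56, SE 0.61) passed with the block only (limma adjusted p = 0.030 and 0.044). Mapk8ip2, Plekhm2 and Spag9 differed by -0.47, -0.53 and 0.41. The testis light chain gene Klc3 differed by 0.10 (SE 0.33).

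Tubulins form the track of these motors, and 3 of the 16 tubulin genes measured rose and 0 fell, also with the block. Of all genes 1.86% rose, and 6.6% with the block. Tubb5, a widely expressed beta-tubulin, read 7.75, 7.36, 8.14 and 7.42 in the mutants and 5.93, 5.46, 6.64 and 6.18 in controls 1 to 4. Its difference was 1.62 (SE 0.27, limma adjusted p = 0.017), but the second Tubb5 probe set gave 0.25 (SE 0.22) and the mean of its probe sets 0.94 (SE 0.22, limma adjusted p = 0.058). Tuba8, an alpha-tubulin present in testis, read 12.82, 12.37, 12.52 and 12.77 in the mutants and 11.77, 12.09, 11.35 and 11.90 in controls 1 to 4 (difference 0.84, SE 0.18, limma adjusted p = 0.040). A second Tuba8 probe set gave -0.14 (SE 0.09). Tuba1a, an alpha-tubulin of many somatic cells, was represented by an x_at probe set. It read 10.30, 8.45, 10.61 and 9.99 in the mutants and 6.61, 7.34, 8.29 and 8.0 in controls 1 to 4 (difference 2.27, SE 0.51, limma adjusted p = 0.046). The brightest probe sets of all 3 separated the groups. Without both control arrays 1 and 3 none of the 3 passed, at 1.85 for Tubb5, 0.62 for Tuba8 and 2.17 for Tuba1a. Leaving out 1 array ended the call of Tubb5 in 3 of 8 fits (mutant array 3 or control array 1 or 4), of Tuba8 in 6 (any but mutant array 2 and control array 2) and of Tuba1a in 7 (any but mutant array 2). Tubb3 differed by 1.5 (SE 0.48, limma adjusted p = 0.13), Tubb2a by 0.74, Tubd1 by 0.39 and Tubb2b by -0.30. Tubb4b, bright in both groups at 13.91 and 13.98, differed by -0.07 (SE 0.12).

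The means of the Sertoli, spermatogonia, Leydig and peritubular, vascular and blood cell marker lists separated the groups in the same direction as these 3 tubulins. The part of any of these cells was not tested. With the Sertoli mean as a covariate the difference of Tuba1a was -0.04 (SE 0.25), that of Tubb5 0.78 (SE 0.39) and that of Tuba8 0.79 (SE 0.35). None passed, in a fit where 1 gene of the whole array did. Every mutant array had a higher Sertoli mean than any control array, so this fit cannot tell genotype and Sertoli content apart.

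**Figure D5:**
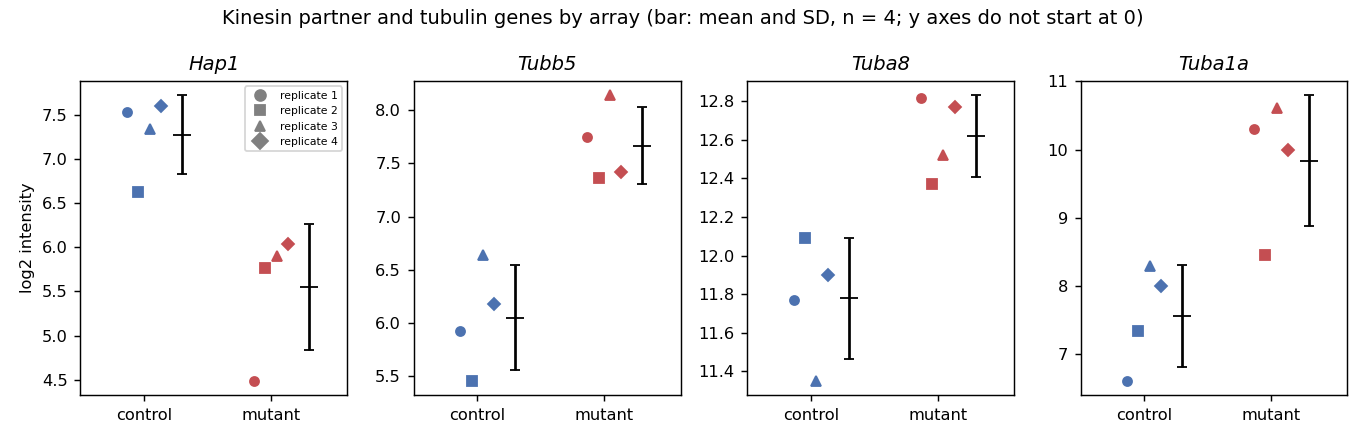
Log2 intensity of the adaptor gene Hap1 and of 3 tubulin genes on each array (y axes differ and do not start at 0), with 1 symbol per replicate number and the mean and SD of 4 arrays beside each group. Mutant arrays lie below all control arrays for Hap1 and above them for Tubb5, Tuba8 and Tuba1a.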

How the data were processed

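Each deposited value is the log2 intensity of a probe set after the authors' normalization; GCRMA and limma are named in the submitters' processing notes, without versions or roles. Array medians lay between 3.10 and 3.14. Of 45101 rows, 64 were Affymetrix controls and were not tested. Gene names came from the platform annotation, where 34945 probe sets carry 1 gene, 932 several and 9160 are unnamed here. Of the first, 34741 were matched by Entrez identifier to RefSeq (GRCm38.p6). The genotypes were tested against each other by limma 3.58.1 under R 4.3.3 (group as the only term, both directions, Benjamini-Hochberg over all genes, or over all 45037 probe sets). SE and 95% intervals are those of the moderated model. The procedure was tested on simulated data.

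Deviations from the group means of same-numbered arrays correlated with r of 0.364 to 0.495 in the 4 pairs, and those of differently numbered arrays with at most -0.017, so the numbers were taken to pair the arrays. Centring within groups pushes the latter negative where the former are positive, so the negative values are no separate evidence. The labels give replicate numbers and name no pairs. The number of arrays limits the precision. Values on every array are given for members past the threshold with or without the block. They are also given for the 4 members with the highest control mean and for those without overlap. Outside this rule, Kif5b, Kif23 and some further probe sets were given full values after seeing the data. The choice of other members to name was likewise made after seeing their values. The members and lists were chosen with earlier results of these data known. Alternatives were the block, leaving out arrays, other probe set rules, a minimum mean of 4, other normalizations and variance models, array weights and a Sertoli marker covariate.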

Additional observations from a re-analysis of the deposited data

Results flagged for a closer look

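In each group of 4 arrays the highest and the lowest value of every member were set against the others by Dixon's gap test. Of 74 such groups 2 stood out, fewer than the 1 in 20 that chance gives. Kif2c read 12.35 on mutant array 1, with 11.76 to 11.81 on the other mutant arrays. Kif5a read 2.90 on mutant array 2, with 2.73 to 2.76 on the others, a gap within the compressed range of dim probe sets.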

How the results depend on the processing

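The number of kinesin genes that passed, 1 with all arrays, was 3 with the replicate block and 3 with array weights (Kif21b and Kif1b in both, with Kifc3 in the first and Kif9 in the second). Among the members and partner genes the replicate block added the calls of Kif1b, Kifc3, Fez2, Klc4 and Mapk8ip1 and changed no other call. The number of kinesin genes was 0 without control arrays 1 and 3, with the mean of a gene's probe sets, with the second probe set and with the Sertoli covariate, and 0 to 1 when 1 array was left out. It stayed at 1 under quantile normalization, median centring, the trend and robust variance model, a minimum mean of 4 and adjustment over all probe sets. Of the 93 probe sets, 1 passed with all arrays, 5 with the replicate block, 3 with array weights, 0 without control arrays 1 and 3 and 0 with the Sertoli covariate, and 0 to 2 when 1 array was left out. Of the partner genes (light chains, adaptors, tubulins and other kinesin superfamily genes) 4 passed with all arrays and 7 with the block. This count was 6 with array weights, 5 with the trend and robust variance model, 3 with median centring, and 4 under quantile normalization and a minimum mean of 4. It was 0 without control arrays 1 and 3, with the second probe set and with the Sertoli covariate, 1 over all probe sets and with the mean of probe sets, and 0 to 7 when 1 array was left out.

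With the second probe set the sign turned for Kif1b (0.20), Kif21b (0.36), Kif2c (0.75) and Tuba8 (-0.14). It turned for Kif2c with the mean of its probe sets (0.27), for Kifap3 without control arrays 1 and 3 (0.21) and for Tuba1a with the Sertoli covariate (-0.04). When 1 array was left out, differences ran from -0.02 to 0.13 for Kif2b, from -0.40 to 0.17 for Kifap3 and from -0.19 to 0.05 for Kif2c. Kif14 has no value with the minimum mean of 4, which it does not reach. The causes were not tested beyond these values. Dim probe sets, which are 57 of 93, limit what can be said of 13 members.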
